A study of Homo sapiens with 6 samples.

Results

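The zinc finger genes of chromosome 19 were taken here as every gene named ZNF followed by a number, with at most 1 capital letter after it, whose locus lies on chromosome 19. There were 190 of them among the 17721 genes listed in either of 2 deposited tables of FPKM, a level corrected for the length of the transcript and for how many fragments were mapped. The same name pattern gave 234 genes on other chromosomes, and 1023 genes of chromosome 19 did not carry it.

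The study used U2OS, an established human osteosarcoma cell line. Its 6 RNA samples were 1 input from shNC control cells labelled wild type, 1 input from shDNMT1 cells labelled as a DNMT1 knockdown, and 2 samples from each kind of cell whose RNA was pulled down together with an NSun2 mutant. The labels state that an NSun2 mutant plasmid was transfected into cells called U6 and into the shDNMT1 cells, and do not say whether U6 names the shNC cells. DNMT1 copies cytosine methylation onto newly made DNA, and NSun2 methylates cytosine in RNA. The tables carry no sample or group name, so it is unknown which RNA each holds. They are called first and second only by their number, and no direction here can be read as knockdown against control. Each gene had 1 value per table. There was no replicate, no SD and no test, the depth of either table is unknown, and every difference described is one between these tables. Of 8 mesenchymal and bone markers the first table listed 4 and the second 6, and COL1A2 and SPP1 were in neither. RUNX2 (0.806 FPKM) and SPARC (0.0328 FPKM) were in the second alone, both at low values. Vimentin (VIM, 262 and 407 FPKM) and FN1 (4.84 and 11.7 FPKM) were higher in the second table. ALPL (78.4 and 38.0 FPKM) and COL1A1 (3.04 and 0.451 FPKM) were lower. Both tables listed all 4 epithelial markers, each lower in the second: KRT8 (1597 and 1410 FPKM), KRT18, CDH1 (8.42 and 0.392 FPKM) and EPCAM (2.20 and 0.555 FPKM). KRT8 and KRT18 (1293 and 1196 FPKM) stood above every mesenchymal and bone marker in both tables. Whether the profile is that of the named line was not tested, nor was the part of these markers in the differences described.

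C2H2 zinc finger proteins bind DNA through arrays of fingers, each held by a zinc ion between a pair of cysteines and a pair of histidines. Many of those encoded on chromosome 19 also carry a KRAB domain, which recruits the corepressor TRIM28 and through it the histone methyltransferase SETDB1, HP1 proteins and DNA methylation, and many of their targets are transposable elements. The genes lie in tandem clusters that grew by duplication, so neighbours are often close paralogs. Fragments of paralogs can be divided between them by the upstream counting. Of the 190 genes, 103 (54.2%) were also listed with a locus identical to that of another gene, of this family or not. The share was 51.4% for other genes of chromosome 19 and 47.5% for all genes.

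Along the chromosome, genes whose consecutive starts lay under 1 Mb apart were joined into clusters. There were 10 clusters of at least 3 genes, holding 182 of the 190, and each is named here by its first and last gene. RefSeq (GRCh38.p14) has 246 protein-coding genes with this name pattern on chromosome 19, and 185 of them were listed. The cluster from ZNF554 to ZNF77 (chromosome 19, 2819874 to 2944971, hg38) had all 5 of its RefSeq genes listed. The cluster from ZNF101 to ZNF254 (19668796 to 24129961), the longest, had 24 of 37. The cluster from ZNF628 to ZNF446 (55475983 to 58512413), near the end of the long arm, had 44 of 59.

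Promoters within a cluster could be alike in sequence. RefSeq promoters, 250 bases before to 50 after the outermost start, were found for 164 of the 190 genes. The word CCGGAAG, part of the sequence known for binding ETS-family factors, was present on either strand in 44.5% of them, against 36.2% of promoters of ZNF genes on other chromosomes, 17.4% for other genes of chromosome 19, 18.1% for all listed genes with a promoter and 10.6% of all RefSeq promoters. It lay whole within the 30 bases before the start in 18.3% of the promoters of the chromosome 19 zinc finger genes, in 14.1% of those of ZNF genes elsewhere and in 4.9% of those of all listed genes. In the cluster from ZNF101 to ZNF254 it was present in 13 of 19 promoters, and in 11 of these it began 17 to 24 bases before the start, always read as CTTCCGG on the strand of the gene. These 11 stretches of 47 bases are shown because they place the word in one shared frame (build GRCh38.p14, 5′ to 3′ on the strand of each gene, with the word in capitals).
ZNF737, chr19:20565788-20565834, minus strand: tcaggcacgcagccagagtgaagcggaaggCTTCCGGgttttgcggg
ZNF66, chr19:20776251-20776297, plus strand: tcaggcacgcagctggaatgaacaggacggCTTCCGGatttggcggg
ZNF85, chr19:20923203-20923249, plus strand: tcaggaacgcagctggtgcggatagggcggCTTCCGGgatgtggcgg
ZNF430, chr19:21020604-21020650, plus strand: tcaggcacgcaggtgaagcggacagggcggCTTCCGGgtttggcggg
ZNF431, chr19:21141986-21142032, plus strand: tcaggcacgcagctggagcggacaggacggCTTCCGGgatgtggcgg
ZNF493, chr19:21397082-21397128, plus strand: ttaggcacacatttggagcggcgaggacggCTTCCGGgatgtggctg
ZNF100, chr19:21767580-21767626, minus strand: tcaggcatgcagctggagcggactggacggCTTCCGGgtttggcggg
ZNF492, chr19:22634276-22634322, plus strand: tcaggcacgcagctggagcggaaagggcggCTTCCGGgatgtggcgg
ZNF724, chr19:23250396-23250442, minus strand: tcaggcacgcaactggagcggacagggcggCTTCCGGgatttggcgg
ZNF91, chr19:23395479-23395525, minus strand: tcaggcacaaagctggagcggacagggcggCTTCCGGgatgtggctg
ZNF254, chr19:24087139-24087185, plus strand: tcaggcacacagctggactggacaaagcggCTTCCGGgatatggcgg
Outside the word, pairs of these 11 stretches were identical at a median of 77.5% of 40 bases, and the least alike pair at 60.0%. Of the 10 genes among them in both tables, 5 were higher and 5 lower in the second table, so genes with alike start regions had ratios on both sides of equality. ZNF91, a repressor of SVA retrotransposons, was listed at 3.57 and 2.94 FPKM, and ZNF431 at 0.392 and 2.26 FPKM.

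In the cluster from ZNF628 to ZNF446, 25 of 40 promoters held the word, and no single frame surrounded it. In 20 of them it began 12 to 168 bases before the start, and both orientations occurred. Of the 18 stretches there that could be aligned in this way, 5 had the bases GGGCGGGA directly before the word. These 5 are shown with ZNF587B and ZNF814, whose stretches were identical in every base.
ZNF264, chr19:57191444-57191490, plus strand: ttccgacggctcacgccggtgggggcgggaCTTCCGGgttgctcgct
ZNF805, chr19:57240565-57240611, plus strand: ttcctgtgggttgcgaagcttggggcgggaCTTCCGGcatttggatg
ZNF547, chr19:57363394-57363440, plus strand: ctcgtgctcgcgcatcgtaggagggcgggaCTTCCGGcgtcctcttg
ZNF419, chr19:57487703-57487749, plus strand: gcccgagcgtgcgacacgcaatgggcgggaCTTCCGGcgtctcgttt
ZNF134, chr19:57614195-57614241, plus strand: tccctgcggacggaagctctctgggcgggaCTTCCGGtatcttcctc
ZNF587B, chr19:57830239-57830285, plus strand: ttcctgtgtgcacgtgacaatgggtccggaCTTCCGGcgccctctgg
ZNF814, chr19:57889046-57889092, minus strand: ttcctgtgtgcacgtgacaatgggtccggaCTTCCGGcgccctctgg
Of the first 5, ZNF264, ZNF805 and ZNF134 were higher in the second table and ZNF547 and ZNF419 lower. ZNF814 was listed at 0.0987 and 0.438 FPKM and ZNF587B at 1.94 and 2.92 FPKM, and both share a locus with ZNF417, ZNF552, ZNF586 and ZNF587. A match to the word is a description of the sequence and not evidence of binding. Promoters with and without CCGGAAG had median log2 ratios between the tables of 0.15 (68 genes) and 0.042 (83 genes), where the log2 ratio is that of (second + 1) to (first + 1) FPKM.

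Most of these genes were near 1 FPKM. The first table listed 173 of the 190, with a median of 0.991 FPKM, and the second 188, with a median of 1.15 FPKM. Over all genes the medians were 4.03 and 3.43 FPKM, and for ZNF genes on other chromosomes 2.01 and 2.12 FPKM. Of those listed, 49.1% and 56.4% reached 1 FPKM, against 75.3% and 67.9% of all genes. Together they summed to 359.5 and 391.4 FPKM, or 0.0622% and 0.0723% of all FPKM in each table, shares that do not count fragments.

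**Figure D1:**
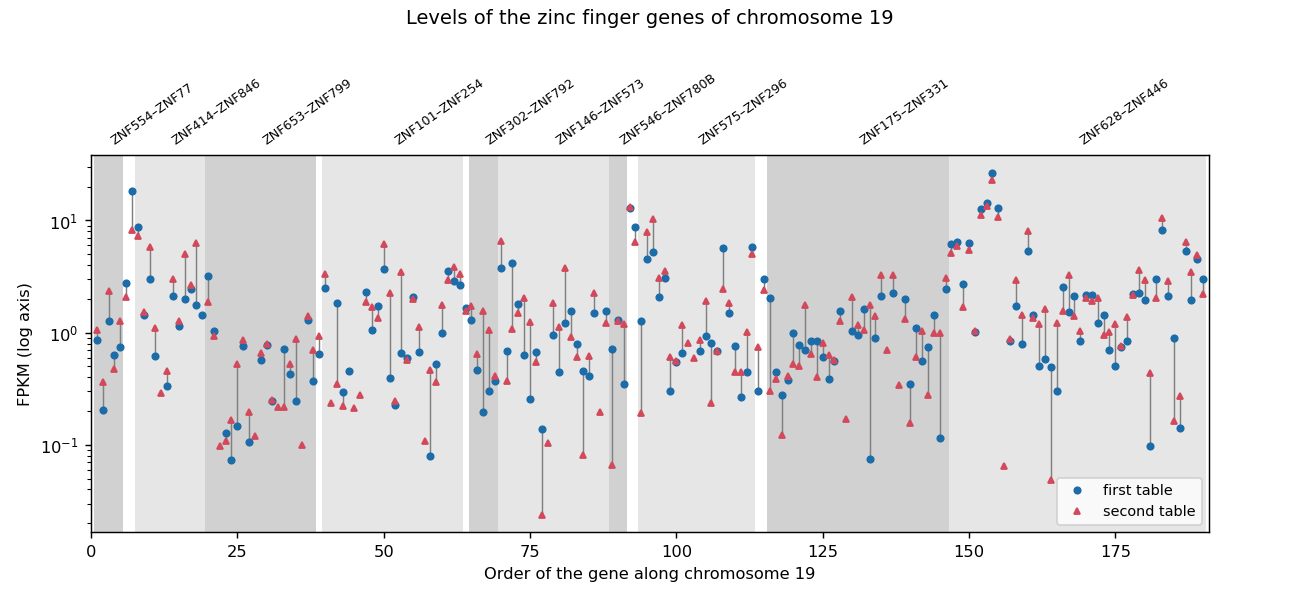
FPKM (log axis) of the 190 zinc finger genes in the first table (circles) and the second (triangles), in their order along chromosome 19, with a line joining the values of each gene listed in both. Grey bands are the 10 clusters, and the highest gene, ZNF787, stands at 26.7 and 22.9 FPKM in the cluster from ZNF628 to ZNF446.

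Of the 10 genes highest in mean level, ZNF787, ZNF581, ZNF580 and ZNF444 lay near each other. ZNF787 (56087366 to 56121280; ENSG00000142409) was listed at 26.7 and 22.9 FPKM. Its neighbours ZNF581 and ZNF580, which share a locus (55635016 to 55653161) with CCDC106, were listed at 14.3 and 13.3 FPKM and at 12.7 and 11.3 FPKM. ZNF444, known for binding the promoter of an endothelial scavenger receptor gene, was listed at 12.9 and 10.8 FPKM. All 4 lie in the first part of the cluster from ZNF628 to ZNF446 and were lower in the second table. The other genes of the 10 highest were ZNF358, ZNF574, ZNF544, ZNF414, ZNF576 and ZNF526. ZNF574, outside the clusters, was nearly equal at 12.9 and 13.3 FPKM, and ZNF544, which shares a locus of 7 identifiers with ZNF8, was listed at 8.18 and 10.4 FPKM.

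At the low end, the cluster from ZNF653 to ZNF799 (11451326 to 12640098) had medians of 0.430 and 0.657 FPKM over its 15 genes in both tables, and its highest gene, ZNF653, was listed at 3.22 and 1.86 FPKM. Of the 190 genes, 77 in both tables had a mean under 1 FPKM, where few fragments can set a value. The 2 genes listed in the first table only were ZNF846, at 1.44 FPKM, and ZNF90, at 0.456 FPKM. The 17 listed in the second table only ranged from 0.0651 to 0.803 FPKM, with ZNF222, the pseudogene ZNF321P and ZNF223 the highest. Of all 17721 genes, 897 were listed in the first table only and 2554 in the second only. Being listed in 1 table is not read as a difference, since depth is unknown.

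Both tables held 171 of the genes, and 103 of these had the higher value in the second table and 68 the lower. That is 60.2% higher, and the background over all 14270 genes in both tables is 54.8%. With a mean of at least 1 FPKM, 53 of 94 (56.4%) were higher, with a background of 57.5%. The median log2 ratio was 0.089, against 0.054 over all genes, and with ratios centred on all genes 52.6% were higher. Taken over all levels, the share and the median thus lay near those of all genes, as did the share among those 94. Low genes differed from their background. Under a mean of 1 FPKM, 64.9% of 77 zinc finger genes were higher in the second table, with a median of 0.082. The background there was 44.3% of 2854 genes, with a median of -0.027. ZNF genes on other chromosomes lay between at that level, with 54.1% of 61 higher and a median of 0.042. Across the 171 genes, log2(FPKM + 1) in the tables correlated with Pearson's r = 0.861 and Spearman's rho = 0.778, against 0.981 and 0.975 for the 844 other genes of chromosome 19, whose levels span a wider range.

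The rest of their chromosome was divided the other way. Of the 844 other chromosome 19 genes that both tables held, 287 were higher (34.0%) and 557 lower in the second, with a median log2 ratio of -0.13. ZNF genes on other chromosomes were divided into 114 higher and 102 lower (52.8% higher), with a median of 0.043 that turned to -0.011 when the ratios were centred on all genes. Inside the 10 clusters lay 87 genes without the name pattern that both tables held, and 36 had the higher value in the second (41.4%), with a median of -0.061. Those outside the clusters were 33.2% higher, with a median of -0.14. The median of the zinc finger genes lay on the other side of equality from that of the genes around them, a difference that was not tested.

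**Figure D2:**
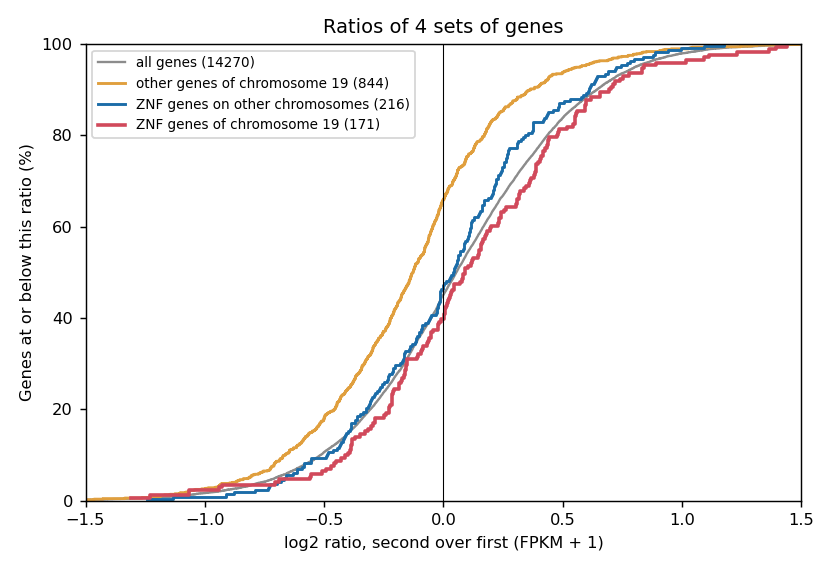
Cumulative share of genes (%) against the log2 ratio of the second table over the first, for zinc finger genes of chromosome 19 (171), ZNF genes on other chromosomes (216), other genes of chromosome 19 (844) and all genes in both tables (14270); the axis is shown from -1.5 to 1.5. The curve of the other genes of chromosome 19 lies to the left, with a median of -0.13, while the zinc finger genes have a median of 0.089.

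Gene density moved with the ratio over all genes and differed between the sets, and its part in the difference was not tested. The zinc finger genes had a median of 47 listed genes within 1 Mb, the other genes of chromosome 19 had 52 and all genes had 21. Among genes with 40 to 58.5 neighbours, the middle 50% of the zinc finger genes, 59.1% of 88 zinc finger genes were higher in the second table, against 34.4% of 410 other genes of chromosome 19 and 43.4% of 1673 genes on other chromosomes. The medians were 0.084, -0.12 and -0.057. Within the family the Spearman correlation of the ratio with density was 0.058 over 171 genes, against -0.25 over all genes, points that share loci and tables. The cluster from ZNF101 to ZNF254, with a median of 13 neighbours, and that from ZNF554 to ZNF77, with 61, had median ratios of 0.23 and 0.18. With clusters joined at gaps under 0.5 Mb, the part of the former from ZNF101 to ZNF492 had a median of 0.024, with 8 genes higher and 7 lower.

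Level moved with the difference between sets as well. In the class with a mean under 1 FPKM the median log2 ratio was 0.082 for 77 zinc finger genes and -0.051 for 171 other genes of chromosome 19. From 1 to 2 FPKM the medians were 0.12 and -0.33, and from 2 to 5 FPKM they were 0.24 and -0.28. At 5 FPKM or more they were -0.13 for 18 zinc finger genes and -0.13 for 521 other genes, with 11 of the 18 lower in the second table. At that level the medians of both sets were alike. For ZNF genes on other chromosomes at 5 FPKM or more the median was 0.054 over 63 genes. From 1 to 2 and from 2 to 5 FPKM their medians were 0.086 and -0.059, and those of all genes 0.025 and 0.14. In those classes the other genes of chromosome 19 lay further from all genes than the zinc finger genes of chromosome 19 did.

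**Figure D3:**
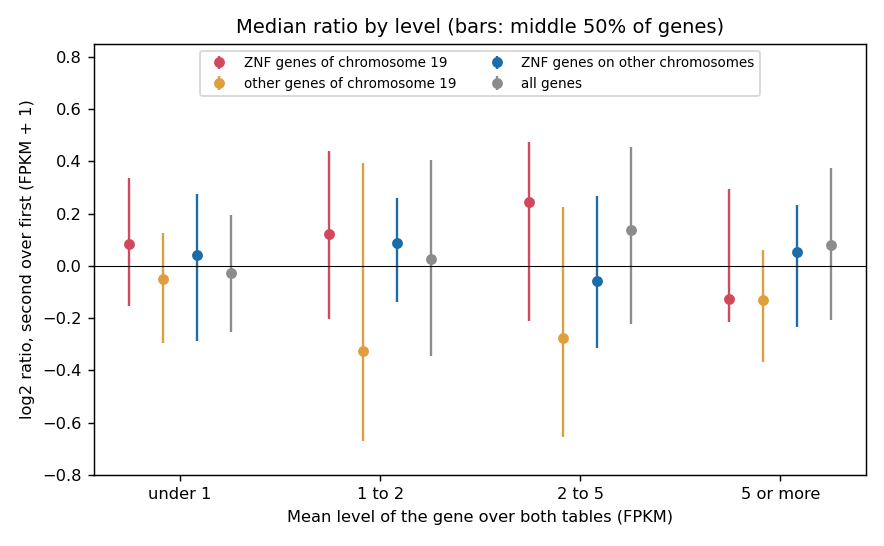
Median log2 ratio of the second table over the first (points) and the middle 50% of genes (bars) in 4 classes of mean FPKM, for zinc finger genes of chromosome 19, other genes of chromosome 19, ZNF genes on other chromosomes and all genes. The points of the chromosome 19 zinc finger genes are at 0.082, 0.12 and 0.24 in the lower classes and at -0.13 in the highest.

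Of the 18 genes at 5 FPKM or more, 10 lay in the cluster from ZNF628 to ZNF446. With a gap of 0.5 Mb in place of 1 Mb that cluster parted into a first and a second stretch. In the part from ZNF628 to ZNF71 (55475983 to 56626481) the median level was 6.37 and 5.70 FPKM, and 8 of 10 genes were lower in the second table, with a median log2 ratio of -0.17 and a narrow range from -0.46 to 0.026. ZNF628 was listed at 6.11 and 5.13 FPKM, ZNF579 at 6.38 and 5.93 FPKM, and ZNF865 at 6.36 and 5.47 FPKM. The genes without the name pattern in that stretch numbered 8, of which 7 were lower (median -0.31). Its zinc finger promoters had a median GC content of 69.7%, against 59.0% in the next part.

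In the part from ZNF264 to ZNF446 (57191500 to 58512413) the balance was the other way, with 22 of 33 zinc finger genes higher in the second table and a median of 0.24. Levels there were lower, with medians of 1.54 and 1.61 FPKM. ZNF460 was listed at 5.38 and 8.13 FPKM, ZNF264 at 1.72 and 2.98 FPKM and ZNF324B at 1.96 and 3.46 FPKM. ZNF304, a KRAB protein known to bring a corepressor complex with DNMT1 to silenced genes, was listed at 0.502 and 1.20 FPKM. ZNF274, which binds the 3′ ends of other zinc finger genes and recruits SETDB1 there, was among the lower ones, with 2.03 FPKM in the second table and a log2 ratio of -0.40. The 16 genes without the name pattern in this part were divided into 7 higher and 9 lower, with a median of -0.036.

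The cluster from ZNF414 to ZNF846 (8509678 to 9793180) had 9 of 10 genes higher in the second table and a median of 0.24. Its exception was ZNF414, its highest gene, at 8.67 and 7.27 FPKM. ZNF317, at 3.03 and 5.80 FPKM, and ZNF266, at 2.14 and 3.02 FPKM, were among the higher ones. The cluster from ZNF302 to ZNF792 (34677639 to 34964049) had 5 of 5 higher, with a median of 0.26 and with ZNF302 alone above 1 FPKM in the first table, at 1.29 and 1.74 FPKM. The cluster from ZNF554 to ZNF77 had 4 of 5 higher, with ZNF556 its highest gene at 1.28 and 2.34 FPKM. The small cluster from ZNF546 to ZNF780B (39984134 to 40094406) had 1 gene higher, ZNF780B, and 2 lower, with ZNF780A nearly equal at 1.29 and 1.27 FPKM.

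In the cluster from ZNF575 to ZNF296 (43506719 to 45305283), 13 of 18 genes were higher, with a median of 0.17. ZNF576 and ZNF428, which share a locus, were listed at 5.26 and 10.2 FPKM and at 4.54 and 7.97 FPKM. ZNF226 was the lowest there in ratio, at 5.65 and 2.47 FPKM. ZNF224, a repressor known from the aldolase A gene, was listed at 0.934 and 1.93 FPKM. ZNF296, the last gene of the cluster, was listed at 5.85 and 5.04 FPKM.

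The clusters from ZNF146 to ZNF573 (36182060 to 37817300) and from ZNF175 to ZNF331 (51571298 to 53580269) were evenly divided, with 8 higher and 9 lower and with 14 higher and 14 lower. Their medians were -0.11 and -0.022, and with genes of a mean of at least 1 FPKM alone they became 0.38 and 0.21, so their sign rested on the low genes. ZNF146, a protein made almost wholly of zinc fingers and also called OZF, was listed at 3.76 and 6.50 FPKM. ZNF331, a gene known to be imprinted, was listed at 2.43 and 3.09 FPKM. ZNF350, a partner of BRCA1 also called ZBRK1, was listed at 0.277 and 0.121 FPKM, and ZNF808 at 1.57 and 1.28 FPKM.

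Outside the clusters lay 8 genes. ZNF473, which works in the 3′ end processing of histone mRNA with the U7 snRNP, was listed at 3.04 and 2.40 FPKM. ZNF526 was listed at 8.73 and 6.47 FPKM and ZNF557 at 2.77 and 2.10 FPKM. Of the 8, 3 were higher in the second table and 5 lower.

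**Figure D4:**
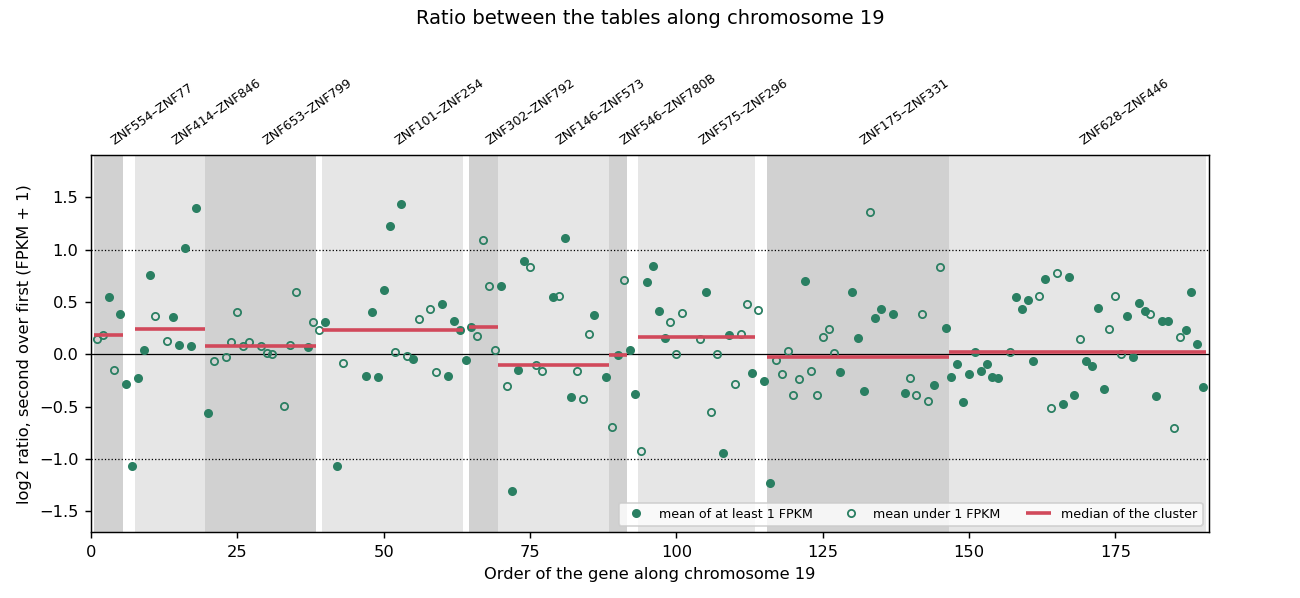
Log2 ratio of the second table over the first, on FPKM + 1, for the 171 genes in both tables in their order along chromosome 19; filled points have a mean of at least 1 FPKM, open points less, red bars are cluster medians and dotted lines mark 2-fold. Cluster medians run from -0.11 to 0.26, and 11 points lie beyond the dotted lines.

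On the log2(FPKM + 1) scale, 11 of the 171 genes lay 2-fold or more apart, where the background in either direction is 3.72%. Of these, 7 were higher in the second table (4.09%, with a background of 2.04% over all genes) and 4 were lower (2.34%, with a background of 1.68%). With genes of a mean of at least 1 FPKM alone they numbered 5 and 4, where the backgrounds are 2.4% and 1.82% of genes at that level. At 1.5-fold, 25 genes (14.6%) were higher and 8 (4.68%) lower, with backgrounds of 12.2% and 7.83%. With a pseudocount of 0.1, which gives low genes more room, 25 were at least 2-fold higher and 13 (7.60%) lower, with backgrounds of 7.41% and 6.82%.

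Among the higher ones, ZNF738 (21358930 to 21379302) was listed at 0.653 and 3.49 FPKM (log2 ratio 1.44). ZNF431 lies in the same cluster and had a log2 ratio of 1.23. ZNF562 (9604680 to 9675086) was listed at 1.77 and 6.28 FPKM (log2 ratio 1.39). It shares its locus with ZNF561, listed at 2.45 and 2.65 FPKM, and with ZNF561-AS1, listed at 1.56 and 0.566 FPKM. ZNF121, a partner of MYC at a locus of its own nearby (9560353 to 9584533), was listed at 1.99 and 5.05 FPKM.

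ZNF28 and ZNF599 had low first values. ZNF28 was listed at 0.0742 and 1.77 FPKM and shares its locus with ZNF468, whose log2 ratio was 0.35. ZNF599 was listed at 0.198 and 1.55 FPKM. ZNF585A, listed at 1.21 and 3.78 FPKM, stood against its close paralog ZNF585B at the same locus (37007857 to 37248738), listed at 1.56 and 0.924 FPKM. The 4 zinc finger genes of that locus in both tables summed to 4.18 and 7.69 FPKM.

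Among the lower ones, ZNF566 (36445119 to 36491040) was listed at 4.14 and 1.08 FPKM (log2 ratio -1.31). ZNF175, also called OTK18, was listed at 2.05 and 0.301 FPKM (log2 ratio -1.23), at a locus of its own (51571298 to 51592508). Its promoter is shown because it holds the word 18 bases before the start, read as CCGGAAG on the strand of the gene. ZNF431, with a ratio on the opposite side, holds it at 24 bases in the other orientation, as CTTCCGG, within other flanking bases. Both orientations were found on both sides of equality. ZNF585A (log2 ratio 1.11) holds the word as CCGGAAG at 15 bases, and ZNF226 (-0.94) holds it as CTTCCGG at 86 bases.
ZNF175, chr19:51571235-51571281, plus strand: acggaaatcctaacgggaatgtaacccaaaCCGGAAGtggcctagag
ZNF506 was listed at 1.83 and 0.350 FPKM. ZNF358 (7476875 to 7521026), outside the clusters, was listed at 18.2 and 8.18 FPKM (log2 ratio -1.07), and was the one gene of the 18 at 5 FPKM or more to differ by 2-fold. It shares its locus with PEX11G, at 0.288 and 0.417 FPKM. Just short of 2-fold were ZNF226, at -0.94, and ZNF575, at -0.93.

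Neighbours often differed. Of 155 pairs of consecutive zinc finger genes within a cluster, 87 (56.1%) lay on the same side of equality, and the median difference between the log2 ratios of a pair was 0.48. The same was not computed for pairs lying apart, so these values are not read as a trait of neighbours. At 25 loci holding at least 2 zinc finger genes in both tables, 13 held genes on both sides of equality, 8 held higher genes alone and 4 held lower genes alone. The ratios at such a locus spanned a median of 0.47 and at most 1.52, the latter at the locus of ZNF585A and ZNF585B. ZNF8 and ZNF544 were nearly equal in ratio, both at 0.32. ZNF224 and ZNF225, at one locus, had log2 ratios of 0.60 and -0.55. How the upstream counting divided fragments among overlapping paralogs was not tested. For genes sharing no locus, 47 of 80 were higher in the second table (58.8%), with a median of 0.042.

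Features of the promoter varied little with the ratio. Over 151 genes with a promoter and a ratio, the Spearman correlation of the ratio was -0.10 with promoter GC content and -0.13 with the observed over expected number of CpG, values too weak to count as a relation. The median promoter of these genes held 20 CpG and 60.8% GC, against 26 CpG and 65.0% GC for all listed genes. An observed over expected CpG ratio of at least 0.6 was found in 78.7% of the 164 promoters and in 79.0% of those of all listed genes.

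A list of partners of KRAB zinc finger proteins, DNA methylation genes and NSUN2 had 21 genes that both tables held, 15 higher and 6 lower in the second. Their log2 ratios had a median of 0.20, beside 0.054 and 54.8% higher over all genes. The shared corepressor TRIM28, itself at the end of chromosome 19 (58544091 to 58550722), was listed at 392 and 342 FPKM. SETDB1, which writes H3K9 methylation, was listed at 7.08 and 10.6 FPKM, and the HP1 genes CBX1, CBX3 and CBX5 at 8.51 and 11.2, at 24.0 and 33.5, and at 13.4 and 23.2 FPKM. SMARCAD1, a remodeller bound to TRIM28, was listed at 1.04 and 2.61 FPKM, and MORC2, of the HUSH silencing pathway, at 3.33 and 5.90 FPKM. Another HUSH gene, FAM208A, was among the 6 lower ones at 6.46 and 5.45 FPKM, as was the nucleosome remodeller CHD3 at 30.7 and 23.0 FPKM. DNMT1 and NSUN2 were the members of this list at least 2-fold apart, at 23.3 and 9.36 FPKM and at 559 and 1147 FPKM, with log2 ratios of -1.23 and 1.04. Whether the NSUN2 values include RNA from the transfected NSun2 mutant plasmid was not tested.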

How the data were processed

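Both deposited tables give 1 FPKM value per gene, as the column is named per the file headers. For the program that computed it, nothing is given in the sources used here. Programs listed in the submitters' processing notes, without a role, are MACS 1.4.2, cutadapt 1.12 and BWA 0.7.13, and the build is hg38. No header names a sample, so no group, pairing or test was possible. Locus starts count from 0: after adding 1, 1824 genes alone at their locus equalled the RefSeq start, against 148 without. A locus can be a merged interval, and positions are those of the locus.

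Ratios are differences of log2(FPKM + 1), second minus first, for genes in both tables and with no filter on level. The pseudocount of 1 FPKM understates differences of low genes. Members, lists and settings were chosen with earlier results of these data known. Named genes were taken from the 10 highest in mean level, the 10 highest and 10 lowest ratios at a mean of at least 1 FPKM, all genes at least 2-fold apart, the highest gene of each cluster, genes in 1 table only (the 5 highest of each) and the cofactor list. Others were chosen for known function or position after their values were seen. The planned count of fingers and KRAB domains per protein was not made, as protein sequences were not used here. The density range, level classes and promoter alignment were chosen after seeing the data. Gene names were matched to RefSeq symbols or synonyms for all 190 genes, and promoters came from RefSeq. Functions were tested on simulated data. Python 3.11.15, pandas 2.3.3, numpy 2.4.6, scipy 1.17.1 and matplotlib 3.10.9 were used.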

Additional observations from a re-analysis of the deposited data

How the results depend on the processing

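No paired analysis was possible because neither table carries replicate names. Of 98 recomputed values, 72 stayed within the 95% binomial interval of the main value or, for counts of calls, within 1.5 times. For medians the interval came from order statistics over genes, or was the whole range under 6 genes. A median that changed sign was left out of the 72, even inside its interval. These intervals treat genes as independent and are wide. Among the 72, the median of all zinc finger genes of chromosome 19, 0.089, became 0.16 with a pseudocount of 0.1 and 0.036 when centred. The cluster from ZNF101 went from 0.23 to 0.024 at a gap of 0.5 Mb, and that from ZNF414 from 0.24 to 0.082 at 2 Mb. The 7 and 4 genes at least 2-fold higher and lower became 25 (14.6%) and 13 (7.60%) with a pseudocount of 0.1. Of all genes, 7.41% and 6.82% were called in that way. Among the 18 averaging 5 FPKM or more the calls became 0 and 1 (5.56%), beside 1.71% and 0.861% of 7083 genes that high. Among the 80 sharing no locus they became 4 (5%) and 1 (1.25%), and no background was computed there. Calling from 1.5-fold gave 25 (14.6%) and 8 (4.68%), beside 12.2% and 7.83% of all genes. A smaller pseudocount or threshold can only add calls and a filter can only remove them. At a mean of at least 5 FPKM the median of the chromosome 19 zinc finger genes became -0.13, with 38.9% of 18 higher. Centring the ratios on all genes gave medians of -0.011 for ZNF genes on other chromosomes, -0.18 for other genes of chromosome 19 and -0.028 for the cluster from ZNF628 to ZNF446, by construction lower. That cluster, at 0.026, also became -0.042 above a mean of 1 FPKM, -0.13 at 5 FPKM, -0.022 for genes sharing no locus and -0.17 for its part with ZNF787 at a gap of 0.5 Mb. At a mean of at least 1 FPKM, the cluster from ZNF146 to ZNF573 went from -0.11 to 0.38 and that from ZNF175 to ZNF331 from -0.022 to 0.21. At 5 FPKM the cluster from ZNF575 to ZNF296 became 0.69 over 3 genes. With a pseudocount of 0.1 the clusters from ZNF554, ZNF653 and ZNF146 became 0.61, 0.16 and -0.23. At a gap of 2 Mb, which merges clusters, those with ZNF146, ZNF780A and ZNF331 became 0.19, 0.15 and 0.018. For the changes under a level filter or among genes sharing no locus, fewer genes entered by construction, and the cause was not tested further. Clusters left with under 3 genes by a filter were given no value.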
